A study of Homo sapiens with 21 samples.

Results

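The mitochondrial genome of human cells carries 37 genes, and all of them were counted in RNA-seq of A549 xenograft tumors. Their 13 mRNA, 2 rRNA and 22 tRNA genes were taken by symbol, as every gene of the raw count table whose symbol starts with MT-, out of 60651 human genes in all. The rule uses symbols alone, and the set was picked for study with earlier results of these data known. The tumors grew from A549-Luc2, a luciferase-carrying derivative of the A549 human lung adenocarcinoma line, which was mixed with Matrigel and placed under the skin of female athymic nu/nu mice aged 6 to 8 weeks. At tumor sizes of 80 to 100 mm3 the mice were randomized into groups of 10. The 3 groups received Oxy186, Oxy210 or the vehicle alone (the control group), each compound at 50 mg/kg daily by oral gavage, and the vehicle of DMSO, ethanol, PEG400 and corn oil was shared by all of them. RNA from 7 tumors of each group (r1-r7) was sequenced. Nude mice lack T cells, the tumors also hold mouse stroma and vessels, and only reads assigned to human genes were counted, so the values describe mainly the carcinoma cells of 1 cell line.

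Mitochondrial DNA is a small circle that is transcribed from both strands into long RNAs covering many genes. Most tRNA genes sit between the other genes, and their excision by RNase P and ELAC2 releases the rRNAs and mRNAs, a scheme known as tRNA punctuation. The rRNAs form the mitochondrial ribosome, the tRNAs serve it, and the mRNAs encode subunits of complexes I, III, IV and V of the respiratory chain and ATP synthase. The heavy-strand transcript carries both rRNAs, 12 of the mRNAs and 14 of the tRNAs. The light-strand transcript carries MT-ND6, the remaining mRNA, and 8 tRNAs. In GRCh38 these genes lie on a chromosome M of 16569 bases, and 33 of the 36 pairs of neighbouring genes overlap or lie at most 10 bases apart.

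The sequences of 5 tRNA genes that the tRNA results name are given for reference, and no result below rests on the sequences themselves. MT-TN (asparagine), MT-TC (cysteine) and MT-TP (proline) took most tRNA counts, MT-TW (tryptophan) was lowest in Oxy186-treated samples r1-r4, and MT-TK (lysine) was among the genes too low to judge. Each is the reference sequence of GRCh38 on the strand of the gene, 5′ to 3′ in DNA letters, with the anticodon in capitals. MT-TN lies at chrM:5657-5729 on the minus strand, MT-TC at chrM:5761-5826 on the minus strand, MT-TP at chrM:15956-16023 on the minus strand, MT-TW at chrM:5512-5579 on the plus strand and MT-TK at chrM:8295-8364 on the plus strand.
MT-TN: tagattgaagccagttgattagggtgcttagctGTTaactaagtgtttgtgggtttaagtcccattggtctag
MT-TC: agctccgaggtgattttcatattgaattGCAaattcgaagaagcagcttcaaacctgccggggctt
MT-TP: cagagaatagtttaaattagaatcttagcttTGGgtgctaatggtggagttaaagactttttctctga
MT-TW: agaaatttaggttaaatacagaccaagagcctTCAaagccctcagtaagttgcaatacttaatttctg
MT-TK: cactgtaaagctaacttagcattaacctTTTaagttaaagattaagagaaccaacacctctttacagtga
MT-TW, MT-TN and MT-TC are close neighbours of the same 5 tRNA cluster between MT-ND2 and MT-CO1, with MT-TW on the opposite strand from MT-TN and MT-TC.

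Total counts on human genes ran from 13787493 to 17865119 per tumor, with overlapping groups, and no pair of the 63 pairs of tumors within groups held identical counts (the most alike pair still differed 12.1 times more than counting noise, as chi-square divided by its degrees of freedom, for genes with at least 20 counts in the pair). The labels number the tumors and do not say whether each came from its own mouse, so the tests measure the spread between these tumors. The 6 A549 markers (KRT8, KRT18, KRT7, AKR1B10, ALDH1A1 and AKR1C1) were counted in every tumor, with a summed level of 14300 to 26100 CPM. Some markers of host cell types were counted too. Of endothelium PECAM1 had 14 to 58 counts and CDH5 2 to 43, while VWF and KDR had a median of 0. Of leukocytes ITGAM had 57 to 133 counts, and CSF1R, PTPRC and CD68 had medians of 4, 3 and 1. Of adipocytes PLIN1 had 7 to 22 counts and ADIPOQ a median of 0, and of skeletal muscle ACTA1 had a median of 4 and MYH4 and CKM of 0. Of fibroblasts COL1A2 had a median of 0, COL3A1 of 3, PDGFRB of 2 and DCN of 24 counts, and the 6 markers summed to 112 to 231 CPM in the control group, 99.9 to 260 CPM in Oxy186-treated and 76.9 to 157 CPM in Oxy210-treated samples, mostly on LUM and COL1A1. The part of such RNA in the values below was not tested. The study set 4 tumors of the Oxy186 group, r1-r4, apart from r5-r7 after a principal component plot of these data. They stood apart in many of the values below, so the main results on Oxy186 are also given for r1-r4 and r5-r7, and since r1-r4 were chosen from these data their values are a description.

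The mRNA genes held most of the mitochondrial counts, the rRNA genes less and the tRNA genes least, in all 21 tumors. The 37 genes together took 6.74% to 11.6% of human gene counts per tumor, with a median of 9.5%. The 13 mRNA genes took 5.39% to 9.99% (median 7.68%), the 2 rRNA genes 1.24% to 2.80% (median 1.63%) and the 22 tRNA genes 0.0158% to 0.0427% (median 0.0309%). Counting error is small beside these differences, since the widest exact binomial 95% interval of a tumor's share reached 0.0157 percentage points on either side for the mRNA class, 0.00814 for the rRNA class and 0.00108 for the tRNA class. Such intervals cover counting error only, because reads without molecular identifiers are not independent molecules. In a bulk tumor, fewer cells of a type and less RNA per cell cannot be told apart.

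The mRNA share was lowest in the Oxy186 group and highest in the Oxy210 group, with overlapping ranges. It was 7.87% ± 0.719 (SD, n = 7) in the control group, 6.77% ± 0.996 (SD, n = 7) in Oxy186-treated and 8.52% ± 0.977 (SD, n = 7) in Oxy210-treated samples. The 3 lowest shares of all 21 tumors belonged to Oxy186-treated samples r1, r2 and r4, at 5.39%, 6.11% and 6.20%. Without r1-r4 the Oxy186 mean was 7.40% ± 0.879 (SD, n = 3). Samples r5 and r7, at 7.59% and 8.17%, lay inside the control range of 6.98% to 9.13%, and r6 at 6.44% lay below it.

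The rRNA share did not follow that order. It was 1.69% ± 0.253 (SD, n = 7) in the control group, 1.79% ± 0.480 (SD, n = 7) in Oxy186-treated and 1.5% ± 0.187 (SD, n = 7) in Oxy210-treated samples, and all 3 ranges overlapped. Oxy186-treated sample r3 had the highest share, 2.80%, against 1.33% to 1.81% in the other 6 tumors of its group.

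The tRNA share split the control and Oxy186 groups. It was 0.0309% to 0.0350% in control samples r1-r4 and 0.0158% to 0.0181% in control samples r5-r7. In the Oxy186 group it was 0.0171% to 0.0296% in r1-r4 and 0.0345% to 0.0427% in r5-r7. The Oxy210 group ran from 0.0276% to 0.0423% without such a gap.

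**Figure D1:**
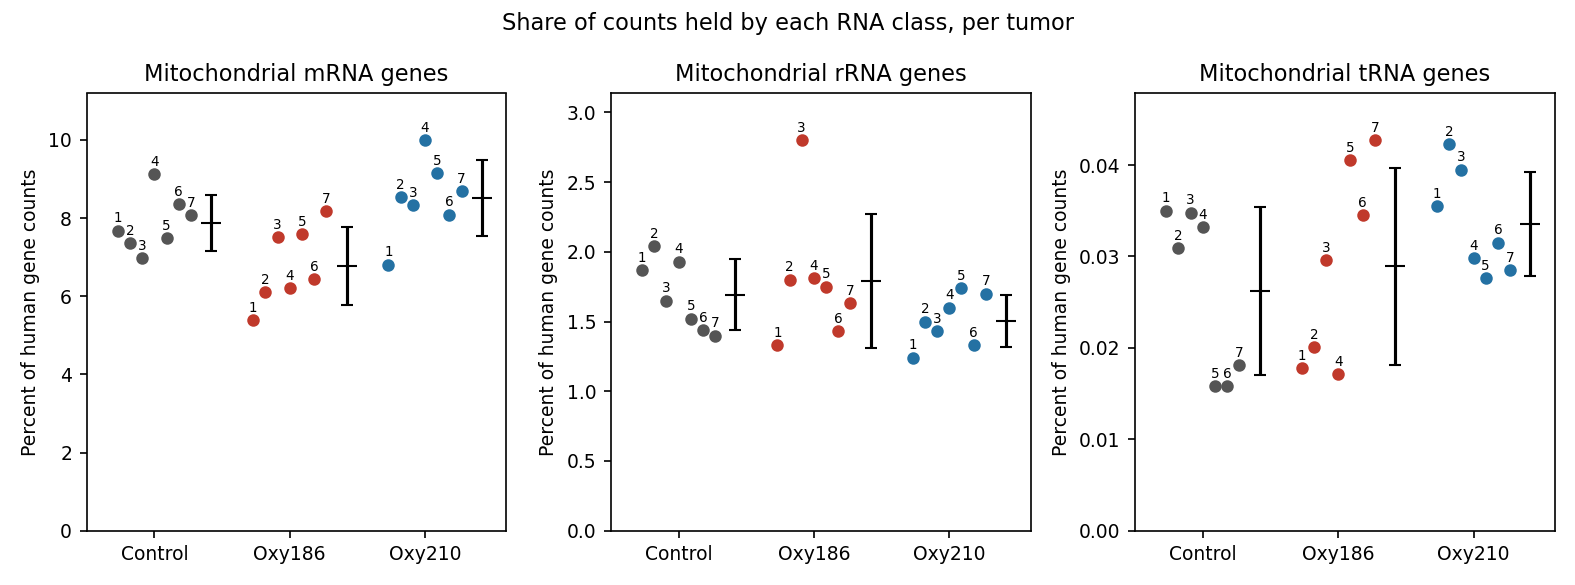
Percent of human gene counts on the 13 mRNA, 2 rRNA and 22 tRNA genes (separate vertical axes, each from 0) in each of 21 tumors, with the replicate number above each point and the mean ± SD (n = 7) beside each group. Oxy186-treated samples r1, r2 and r4 have the lowest mRNA shares, Oxy186-treated sample r3 the highest rRNA share (2.80%), and control samples r5-r7 stand below 0.02% in the tRNA panel.

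Levels of the rRNA and mRNA genes were compared per length, as CPM scaled by TMM and divided by the gene's length in kilobases. In the control group the cytochrome c oxidase genes led. MT-CO1, the catalytic subunit of complex IV, had 17500 ± 2010 CPM per kb (SD, n = 7), MT-CO3 14300 ± 3770 and MT-CO2 12200 ± 3670, both further core subunits of complex IV. MT-ATP6, a subunit of the proton channel of ATP synthase (complex V), followed with 9380 ± 1510 CPM per kb and MT-RNR2, the large-subunit rRNA, with 9360 ± 1750. The ranges of all neighbours among these 5 genes overlapped, and MT-ATP6 lay above MT-RNR2 in 4 of 7 control tumors.

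A step with no overlap came after MT-ND4 of complex I, at 7750 ± 957 CPM per kb (SD, n = 7) and a range of 6220 to 9320 in the control group. MT-ND1 came next at 4360 ± 821, with a highest control value of 5610. MT-CYB, the mitochondrially encoded subunit of complex III, had 4100 ± 515 CPM per kb, and MT-ND4L, MT-ND3 and MT-ND2 of complex I had means of 3970, 3310 and 3120. From MT-ND1 on, each of these 5 genes overlapped with the next gene in the order.

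The lowest levels per length belonged to MT-RNR1, the small-subunit rRNA, at 2980 ± 1330 CPM per kb (SD, n = 7), MT-ND6 at 1610 ± 275, MT-ATP8, an accessory subunit of ATP synthase, at 1470 ± 306, and MT-ND5 at 935 ± 115. Of these, only MT-ND5 stood clear of the gene before it, with all of its control values (773 to 1090) below those of MT-ATP8 (1180 to 1840). Over all 21 tumors the order began and ended with the same genes, and MT-CO1 exceeded MT-CO3 in 20 of 21 tumors. How these libraries were depleted of rRNA or selected for mRNA is not given in the sources used here, so the place of the rRNA genes in this order cannot be read as their abundance in the cells.

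The tRNA genes are 59 to 75 bases long, shorter than most sequenced fragments, so they are given only as counts. A median of 2427 counts per tumor fell on MT-TN, 954 on MT-TC and 798 on MT-TP. These 3 genes took 83.2% to 95.6% of all tRNA counts of a tumor. All of them belong to the light-strand transcript, whose 8 tRNA genes together took 85.4% to 97.6% of the tRNA counts. The counts were thus unevenly spread over genes of 1 transcript, from 2427 on MT-TN to a median of 1 on MT-TQ (glutamine).

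The next 4 tRNA genes had intermediate counts, MT-TL1 (leucine UUR) with a median of 175, MT-TW with 74, MT-TT (threonine) with 41 and MT-TY (tyrosine) with 35. MT-TR (arginine) and MT-TS1 (serine UCN) passed the filter on low counts (filterByExpr of edgeR) but had medians of only 19 and 11, and are called thinly counted here. A filter that keeps a gene through any group where it is high leaves 9 of the 22 tRNA genes in the tests.

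The other 13 tRNA genes were too low to judge and were not tested. They were MT-TE (glutamic acid), with a median of 9 counts, MT-TV (valine) with 6, MT-TD (aspartic acid) with 5, MT-TM (methionine), MT-TG (glycine) and MT-TA (alanine) with 4, MT-TH (histidine) with 3, MT-TI (isoleucine) with 2, MT-TF (phenylalanine), MT-TQ and MT-TS2 (serine AGY) with 1, and MT-TL2 (leucine CUN) and MT-TK with 0. Of these, 10 belong to the heavy-strand and 3 to the light-strand transcript. MT-TK was at 0 in 13 tumors, MT-TL2 in 11, MT-TQ in 9 and MT-TF in 8. A count of 0 allows up to 3 counts, or 0.168 to 0.218 CPM at these depths, so nothing is said of their levels between groups.

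**Figure D2:**
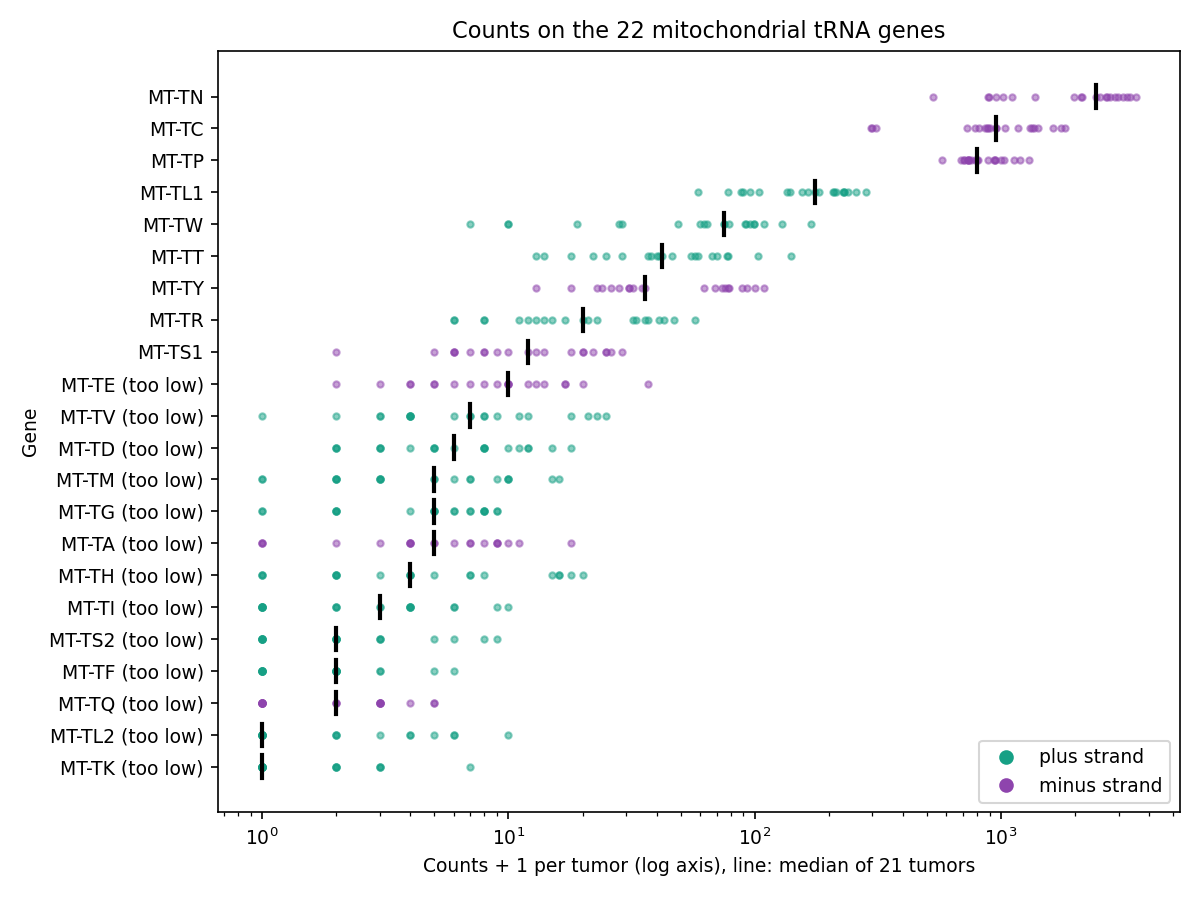
Counts plus 1 on each of the 22 tRNA genes, on a log axis, with 1 point per tumor, a line at the median of 21 tumors, and colour for the reference strand (the minus strand holds the genes of the light-strand transcript). MT-TN, MT-TC and MT-TP of the minus strand lead, and the 13 genes marked as too low have medians of at most 9 counts.

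Oxy186 and Oxy210, given at the same dose, were compared next. No gene passed an adjusted p at or under 0.05 between all 7 Oxy186-treated and all 7 Oxy210-treated samples in edgeR's quasi-likelihood test (Benjamini-Hochberg), neither any of the 24 tested mitochondrial genes nor any of 16361 genes in all (0.0% of genes tested). At an unadjusted p under 0.05, 9 of the 24 were lower in Oxy186-treated samples and 0 higher, where 0.917% of all tested genes were lower and 3.14% higher. No tested mitochondrial gene was free of overlap between the groups, where 0.0306% of all genes lay wholly lower and 0.0428% wholly higher. Of the 24, 19 had a log2 fold change below 0, against 51.5% of all genes. All 13 mRNA genes were among these 19, with a median log2 fold change of -0.45 beside -0.01 over all genes. That median was -0.77 with r1-r4 alone and -0.12 with r5-r7 alone. With DESeq2 and limma voom 0 of the 24 passed the adjusted threshold as well. The 24 genes lie on long shared transcripts and are not independent of each other. Counts of them beside the share of all genes, here and below, are therefore descriptions.

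Among the rRNAs, MT-RNR1 ran from 963 to 2690 CPM with a median of 2060 in Oxy186-treated samples and from 1430 to 2370 with a median of 1810 in Oxy210-treated samples. The Oxy210 values lay inside the Oxy186 range, and the log2 fold change was -0.08 ± 0.22 (SE; 95% interval -0.54 to 0.38, edgeR, adjusted p = 1). It was -0.43 ± 0.22 (SE) with r1-r4 alone and 0.29 ± 0.16 (SE) with r5-r7 alone. MT-RNR2 ran from 11300 to 29000 CPM (median 14700) in Oxy186-treated and from 10000 to 14500 CPM (median 13000) in Oxy210-treated samples. Oxy186-treated sample r3 was far above the rest, the other values overlapped, and the log2 fold change was 0.36 ± 0.19 (SE; 95% interval -0.03 to 0.76, edgeR, adjusted p = 1), and 0.11 ± 0.14 (SE) with r5-r7 alone.

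Of the mRNAs, MT-ATP8 of complex V had the smallest (most negative) log2 fold change. Its level was 143 to 305 CPM (median 238) in Oxy186-treated and 215 to 555 CPM (median 443) in Oxy210-treated samples. Oxy210-treated samples r3-r7 lay at 350 CPM or more, above every Oxy186-treated sample, while r1 and r2 at 215 and 271 CPM lay among the Oxy186 group. The log2 fold change was -0.85 ± 0.21 (SE; 95% interval -1.30 to -0.40), with an edgeR adjusted p of 0.853. It was -0.82 ± 0.26 (SE) with r1-r4 alone and -0.88 ± 0.27 (SE) with r5-r7 alone, so it was as large in both parts of the Oxy186 group.

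MT-CO3 of complex IV had the mRNA log2 fold change closest to the positive side, -0.05 ± 0.20 (SE; 95% interval -0.47 to 0.37, edgeR, adjusted p = 1). Its level was 5120 to 13300 CPM (median 10100) in Oxy186-treated and 7650 to 13200 CPM (median 9650) in Oxy210-treated samples, and the groups overlapped over nearly their whole range. MT-ND6, the mRNA of the light strand, was at 338 to 956 CPM (median 545) and 441 to 1000 CPM (median 874), and its log2 fold change was -0.30 ± 0.24 (SE; 95% interval -0.80 to 0.20, edgeR, adjusted p = 1). By complex, the median log2 fold change was -0.45 over the 7 complex I genes, -0.46 for MT-CYB, -0.12 over the 3 complex IV genes and -0.66 over the 2 complex V genes.

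Among tRNAs with a median of at least 30 counts, the extremes were MT-TT and MT-TW. MT-TT had 12 to 140 counts (median 39) in Oxy186-treated and 17 to 76 counts (median 37) in Oxy210-treated samples, with overlap over the whole Oxy210 range and a log2 fold change of 0.49 ± 0.49 (SE; 95% interval -0.54 to 1.53, edgeR, adjusted p = 1). Without Oxy186-treated sample r6 it was 0.0422, with limma voom 0.11 and with the replicate block 0.159. MT-TW had 6 to 98 counts (median 18) in Oxy186-treated and 48 to 169 counts (median 90) in Oxy210-treated samples. The 5 Oxy186-treated samples r1-r5 lay below every Oxy210-treated sample and r6 and r7 lay among them, and the log2 fold change was -1.24 ± 0.56 (SE; 95% interval -2.41 to -0.07, edgeR, adjusted p = 1). Leaving out 1 tumor at a time it ran from -1.69 (without Oxy186-treated sample r7) to -1.01 (without Oxy210-treated sample r3). It was -1.67 without Oxy186-treated sample r6, -1.1 with GC offsets, -1.93 with limma voom and -1.82 with the replicate block. The thinly counted MT-TR, named after its value was seen, had a log2 fold change of -1.61 ± 0.42 (SE) with an edgeR adjusted p of 0.853, from 5 to 31 counts against 14 to 56. Both MT-TR and MT-TW passed the filter through the Oxy210 group, where they were higher, so their values are descriptions. They are among the 9 genes counted as lower above.

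**Figure D3:**
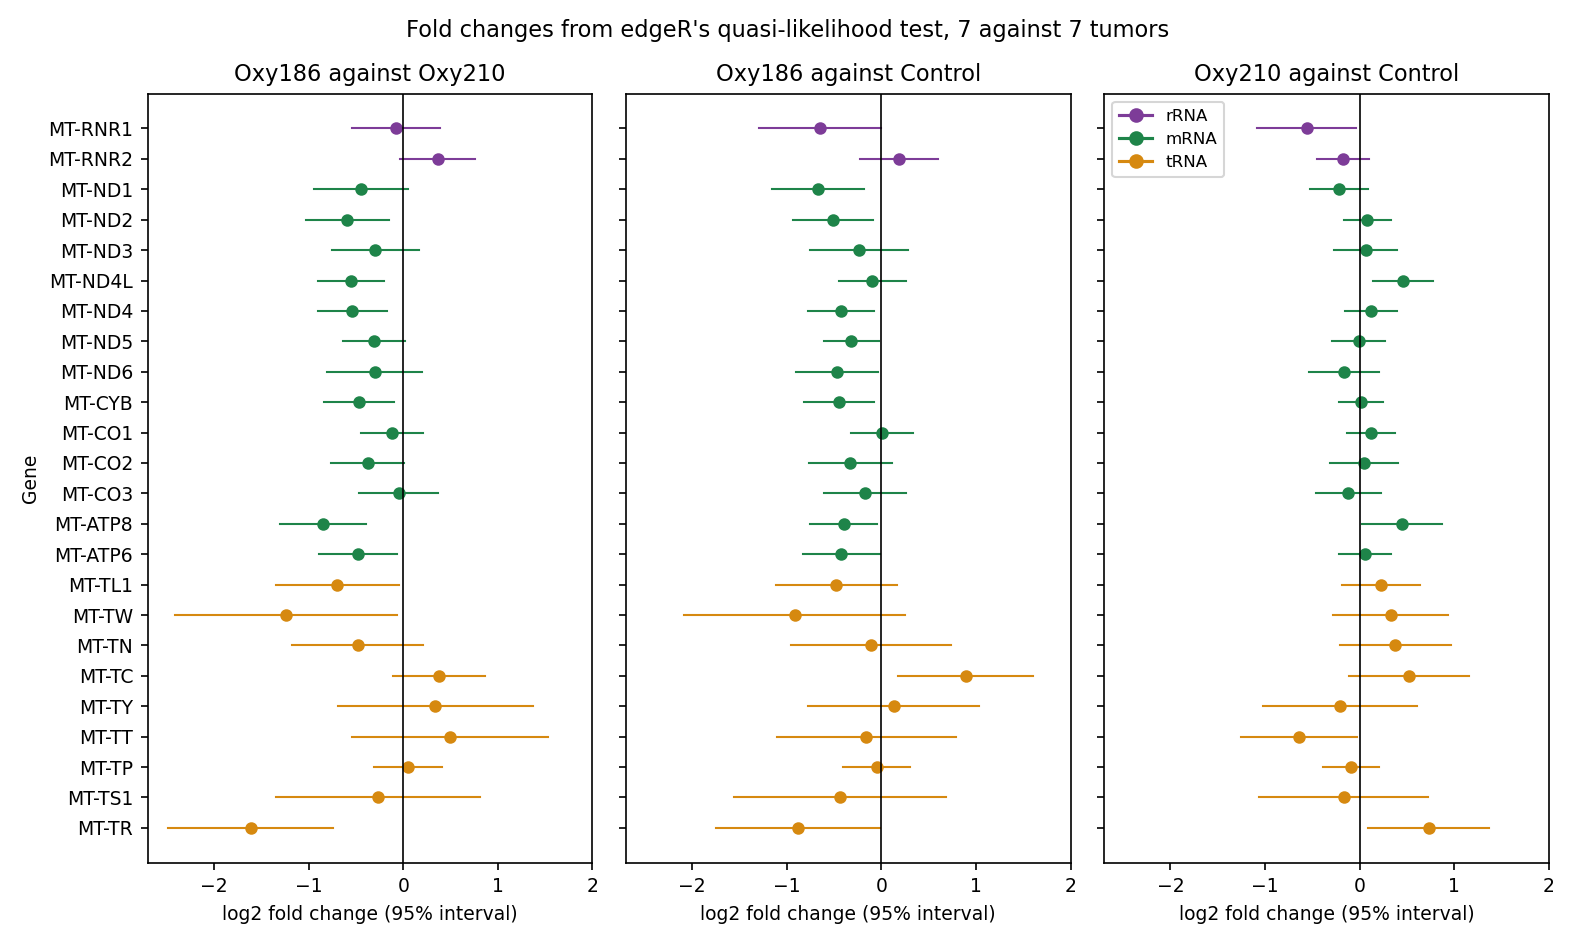
Log2 fold changes with 95% intervals from edgeR for the 24 tested genes in the 3 comparisons (first group minus second, 7 tumors each), coloured by RNA class. Of the 24 points, 19 lie below 0 for Oxy186 against Oxy210, 20 for Oxy186 against the control group and 10 for Oxy210 against the control group, and no gene passed the adjusted threshold in any panel.

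Oxy186-treated samples r1-r4 held the lowest values of several genes. In 5 of the 24 tested genes every one of r1-r4 lay below each of the other 17 tumors, where 3.74% of all genes tested did, and in 0 of 24 above (1.11% of all genes). These were MT-ND2 and MT-ND4 of complex I, MT-CYB of complex III, MT-ATP6 of complex V and MT-TW, named here after their values were seen. MT-ND2 was at 1350 to 2020 CPM in r1-r4 and at 2470 to 4030 CPM in the other 17 tumors. MT-ND4 was at 5550 to 7160 CPM in r1-r4 and 8350 to 14200 CPM in the others, and MT-CYB at 2190 to 3440 against 3670 to 5750 CPM. MT-ATP6 was at 2830 to 4430 CPM against 4550 to 8310 CPM, so r1-r4 lay just below the lowest other tumor. MT-TW had 6 to 18 counts in r1-r4 and 27 to 169 counts in the other tumors, through which it passed the filter. The complex IV genes of r1-r4 overlapped with the other tumors. MT-CO1 was at 22500 to 38900 CPM in r1-r4 and 21900 to 33700 CPM in the others. MT-CO2 was at 4280 to 8570 against 5670 to 13200 CPM, and MT-CO3 at 5120 to 13100 against 7650 to 16300 CPM. The lowest values of MT-CO2 and MT-CO3 thus also lay in r1-r4.

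Within the mRNA counts of a tumor, complex I genes accordingly held 18.3% to 24.4% in r1-r4 and 26.4% to 31.3% in the other 17 tumors. Complex IV genes held 64.6% to 72.1% in r1-r4, above the 54.0% to 59.7% seen over the control group and the 54.9% to 59.6% seen over Oxy210-treated samples. These shares are of the same total, so a lower share of one complex raises the others.

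Fitted against Oxy210-treated samples without r5-r7, r1-r4 gave 12 of 24 mitochondrial genes past the adjusted threshold in edgeR, all lower, where 11.1% of all tested genes passed and 8.12% were lower. MT-TW and MT-TR, among these 12, passed the filter through the Oxy210 group and could hardly have been called higher. MT-TW had a log2 fold change of -3.12 ± 0.42 (SE), MT-ND2 of -1.07 ± 0.17, MT-ATP6 of -0.84 ± 0.18, MT-ND4 of -0.82 ± 0.17 and MT-CYB of -0.79 ± 0.16, while MT-CO1 was at 0.02 ± 0.18 and MT-RNR2 at 0.54 ± 0.21. Fitted without r1-r4, 0 of 28 tested mitochondrial genes passed in edgeR, where 0.167% of all genes did, and at an unadjusted p under 0.05 1 was lower and 3 higher (4.83% and 10.0% of all genes). The filter of this fit kept tRNA genes too low to judge, MT-TV and MT-TD among them. The corresponding values for r5-r7 were -0.26 ± 0.41 for MT-TW, -0.13 ± 0.15 for MT-ND2, -0.09 ± 0.15 for MT-ATP6, -0.23 ± 0.16 for MT-ND4 and -0.12 ± 0.14 for MT-CYB. Both fits were chosen after the data were seen.

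The dependence of counts on GC content differed between tumors. The slope of counts on the GC content of nuclear genes was negative in all of r1-r4, from -0.51 to -0.18 log2 units per 10 percentage points of GC content, where the 21 tumors ran from -0.51 to 0.49. It was also negative in control sample r7 (-0.15) and in Oxy210-treated samples r4-r7, where r5 at -0.33 lay below Oxy186-treated samples r1 (-0.30) and r2 (-0.18). The mitochondrial mRNA and rRNA genes have a GC content of 39.6% to 47.7%. With the GC trend of each library entered as offsets, 8 of 24 mitochondrial genes were lower and 0 higher at an unadjusted p under 0.05 between all 7 Oxy186-treated and all 7 Oxy210-treated samples (2.49% of all genes lower, 5.60% higher), and the median over the mRNA genes was -0.46. The part of other differences between libraries in these values was not tested.

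**Figure D4:**
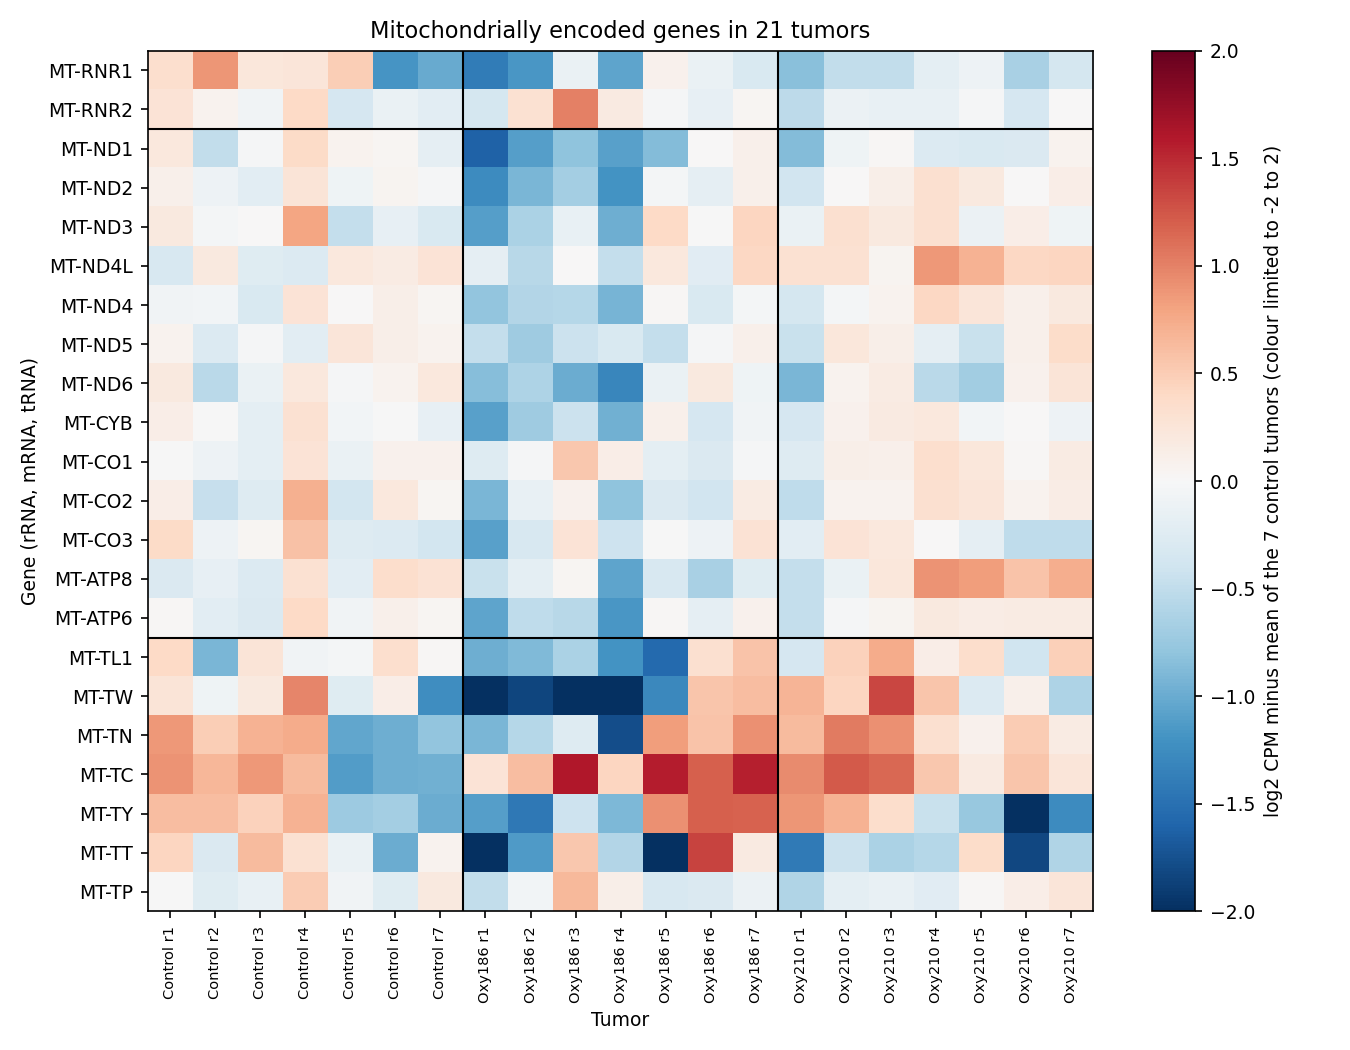
Log2 CPM (TMM-scaled) of the 2 rRNA, 13 mRNA and 7 tRNA genes with a median of at least 30 counts in each of 21 tumors, as the difference from the mean of the 7 control tumors, with colour limited to -2 to 2. Oxy186-treated samples r1-r4 are blue through most complex I genes, MT-CYB, MT-ATP6 and MT-TW, lie on both sides of the control mean in MT-CO1 and MT-TP, and control samples r5-r7 are blue in MT-TN, MT-TC and MT-TY.

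Between Oxy186-treated samples and the control group, 0 of 24 mitochondrial genes and 0 of 16291 genes (0.0%) passed the adjusted threshold in edgeR. At an unadjusted p under 0.05, 10 of the 24 were lower and 1 higher, where 2.03% and 1.85% of all genes were. With DESeq2 and limma voom 0 of the 24 passed the adjusted threshold. The log2 fold change was below 0 in 20 of the 24 (47.4% of all genes), and the groups overlapped in all 24 (0.0% of all genes lay wholly lower and 0.00614% wholly higher). The comparison shares its Oxy186 tumors with the one above and is no independent support for it.

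MT-ND1, a membrane subunit of complex I, had the smallest mRNA log2 fold change here. It was at 1340 to 4380 CPM (median 2250) in Oxy186-treated and 2900 to 5360 CPM (median 4200) in control samples. The 5 tumors r1-r5 of the Oxy186 group lay below every control tumor, r6 and r7 did not, and the log2 fold change was -0.67 ± 0.23 (SE; 95% interval -1.16 to -0.19, edgeR, adjusted p = 0.836). MT-CO1 had the largest, 0.00 ± 0.16 (SE; 95% interval -0.32 to 0.33, edgeR, adjusted p = 0.996), at 21900 to 38900 CPM (median 26400) against 23500 to 32600 CPM (median 26600). Its sign changed with the processing.

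The rRNAs differed from each other in this comparison. MT-RNR1 was at 963 to 2690 CPM in Oxy186-treated and at 1120 to 4700 CPM (median 3020) in control samples, with a log2 fold change of -0.65 ± 0.31 (SE; 95% interval -1.29 to -0.00, edgeR, adjusted p = 0.836), which was -1.02 ± 0.36 with r1-r4 alone and -0.28 ± 0.35 with r5-r7 alone. MT-RNR2 was at 11300 to 29000 CPM against 11400 to 18900 CPM (median 13700), with a log2 fold change of 0.18 ± 0.20 (SE; 95% interval -0.23 to 0.60, edgeR, adjusted p = 0.845), and -0.02 when r3 was left out. MT-ND6 was at 338 to 956 CPM against 570 to 967 CPM (median 873), with a log2 fold change of -0.47 ± 0.21 (SE; edgeR, adjusted p = 0.836). Groups overlapped in all 3 genes.

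Of the tRNAs, MT-TC had the largest value against control samples, with a log2 fold change of 0.89 ± 0.34 (SE; 95% interval 0.17 to 1.61, edgeR, adjusted p = 0.836), and MT-TW the smallest, -0.92 ± 0.55 (SE; 95% interval -2.08 to 0.25, edgeR, adjusted p = 0.836). For MT-TW it ran from -1.4 (without Oxy186-treated sample r7) to -0.727 (without control sample r4) when 1 tumor at a time was left out. It was -0.877 with GC offsets, -1.61 with limma voom and -1.54 with the replicate block. MT-TW passed the filter of this comparison through the control group, where it was higher, so its value is a description. MT-TC had 813 to 1819 counts (median 1366) in Oxy186-treated and 296 to 1304 counts (median 898) in control samples. Control samples r5-r7 lay at 18.7 to 20.9 CPM of MT-TC, below every other tumor, and the other 4 control samples at 62.8 to 75.8 CPM were within the Oxy186 range of 49.1 to 124 CPM.

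With r1-r4 alone 11 of 24 mitochondrial genes passed the adjusted threshold against the control group in edgeR, all lower, where 19.7% of all genes passed and 15% were lower. MT-TW, among these 11, passed the filter through the control group. MT-ND1 was then at -1.15 ± 0.20 (SE), MT-ND6 at -0.94 ± 0.17 and MT-CO1 at 0.12 ± 0.19 on the log2 scale. With r5-r7 alone 0 of 28 and 0 of 17342 genes (0.0%) passed in edgeR, and at an unadjusted p under 0.05 1 of the 28 was lower and 3 were higher (1.30% and 3.18% of all genes). These 28 again include tRNA genes too low to judge. Without r1-r4, MT-ND1 was at -0.23 ± 0.22 (SE) and MT-TC at 1.2 ± 0.39, where MT-TC was at 0.58 ± 0.40 with r1-r4 alone.

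Between Oxy210-treated samples and the control group 0 of 24 mitochondrial genes and 0 of 16396 genes (0.0%) passed the adjusted threshold in edgeR. At an unadjusted p under 0.05, 2 of the 24 were lower and 3 higher, where 8.56% and 5.48% of all genes were. With DESeq2 and limma voom 0 of the 24 passed it. The log2 fold change was below 0 in 10 of the 24 (49.3% of all genes), and the groups overlapped in all 24 (0.0793% of all genes lay wholly lower and 0.061% wholly higher). The median over the mRNA genes was 0.06 on the log2 scale (-0.01 with GC offsets), against 0.01 over all genes.

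MT-ND4L of complex I had the largest mRNA value, with 1200 to 2120 CPM (median 1550) in Oxy210-treated and 926 to 1400 CPM (median 1300) in control samples and a log2 fold change of 0.46 ± 0.15 (SE; 95% interval 0.15 to 0.77, edgeR, adjusted p = 0.266). MT-ND1 had the smallest, -0.22 ± 0.15 (SE; 95% interval -0.53 to 0.09, edgeR, adjusted p = 0.478), with 2250 to 4320 CPM (median 3380) in Oxy210-treated samples. Both genes overlapped between the groups, although Oxy210-treated sample r1 was lowest in MT-ND1 by a wide gap.

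MT-RNR1 had a log2 fold change of -0.56 ± 0.25 (SE; 95% interval -1.09 to -0.04, edgeR, adjusted p = 0.331) and MT-RNR2 of -0.17 ± 0.13 (SE; 95% interval -0.45 to 0.10, edgeR, adjusted p = 0.528). The Oxy210 values of MT-RNR1, 1430 to 2370 CPM, fell between control samples r6 and r7, the lowest, and the other 5 control samples. MT-ND6 was at -0.16 ± 0.18 (SE; edgeR, adjusted p = 0.667). Of the tRNAs, MT-TC was at 0.52 ± 0.30 (SE; edgeR, adjusted p = 0.43) and MT-TT at -0.64 ± 0.29 (SE; 95% interval -1.25 to -0.02, edgeR, adjusted p = 0.342), the latter from 17 to 76 counts against 28 to 102.

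Ratios within a library, which need no scaling between libraries, are described without a test. Counts on the rRNA genes were 0.160 to 0.195 times those on the mRNA genes in Oxy210-treated samples, 0.173 to 0.276 times in the control group and 0.200 to 0.373 times in Oxy186-treated samples. Every Oxy186-treated sample thus lay above every Oxy210-treated sample, and the control group overlapped with both. Within the Oxy186 group r1-r4 were at 0.248 to 0.373 and r5-r7 at 0.200 to 0.230.

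MT-RNR2 exceeded MT-RNR1 per length in all 21 tumors, although both lie next to each other on the heavy-strand transcript with only MT-TV between them. The ratio per kb was 7.17 to 9.46 in Oxy186-treated samples r1-r4, 3.24 to 4.36 in r5-r7 and 3.56 to 4.47 in Oxy210-treated samples. The control group was spread widely, from 1.94 to 7.18. Control sample r6, at 7.18, lay inside the range of r1-r4, and control sample r7, at 6.05, came close to it. The other 5 control tumors did not exceed 3.83.

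The ratio of MT-TN to MT-TC, neighbours on the light-strand transcript whose sequences are given above, separated the Oxy186 group from the others. It was 0.618 to 1.85 in Oxy186-treated samples, 2.30 to 2.79 in Oxy210-treated and 2.54 to 3.22 in control samples, with no overlap between the Oxy186 group and either of the others. Both parts of the Oxy186 group lay below, r1-r4 at 0.618 to 1.25 and r5-r7 at 1.72 to 1.85. Control samples r5-r7, which had the lowest levels of MT-TC, had a ratio of 2.85 to 3.22. This ratio was picked among others after the values were seen.

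**Figure D5:**
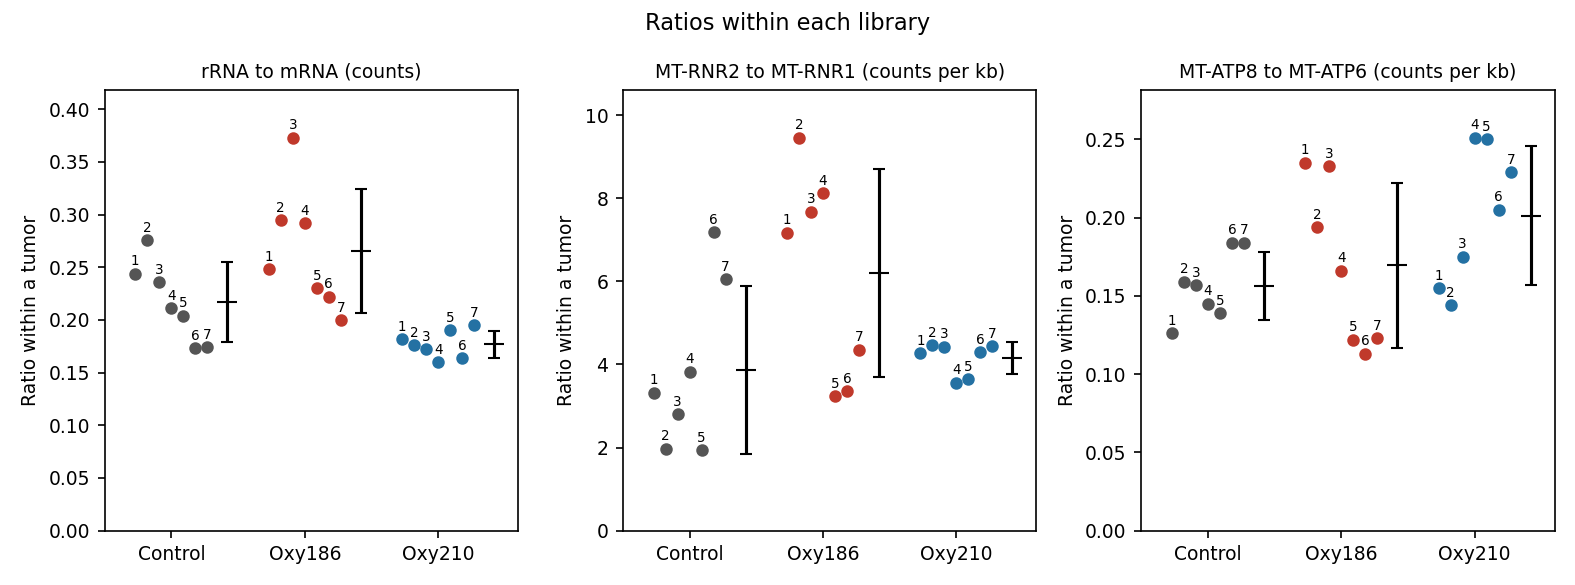
Ratios within each of 21 tumors (vertical axes from 0), with the replicate number above each point and the mean ± SD (n = 7) beside each group: rRNA to mRNA counts, MT-RNR2 to MT-RNR1 counts per kb, and MT-ATP8 to MT-ATP6 counts per kb. Oxy210-treated samples lie at 0.160 to 0.195 in the left panel. In the middle panel Oxy186-treated samples r1-r4 lie at 7.17 to 9.46, with control sample r6 inside their range at 7.18.

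MT-ATP8 and MT-ATP6 are read from 1 bicistronic mRNA and share 46 bases at chrM:8527-8572 of GRCh38 on the plus strand, which are 22.2% of MT-ATP8 and 6.75% of MT-ATP6. The stretch is shown because reads within it could belong to either gene, with the shared bases in capitals and 10 bases on either side.
ATP8 and ATP6 overlap: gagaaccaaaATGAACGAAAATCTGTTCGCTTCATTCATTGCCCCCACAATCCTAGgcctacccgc
Counts per kb on MT-ATP8 were only 0.113 to 0.251 times those on MT-ATP6. The ratio was 0.126 to 0.184 in the control group, 0.166 to 0.235 in Oxy186-treated samples r1-r4, 0.113 to 0.123 in r5-r7 and 0.144 to 0.251 in Oxy210-treated samples. The other bicistronic pair, MT-ND4L and MT-ND4 of complex I, shares 7 bases and had ratios per kb of 0.346 to 0.797. How reads on shared bases or on the opposite strand were counted is not given in the sources used here, so values of these 4 genes, and of MT-ND6 and the tRNA genes opposite other transcripts, are uncertain to that extent.

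Nuclear copies of mitochondrial DNA limit the levels of the mRNA and rRNA genes too. Only uniquely mapped reads were counted, and reads that fit a copy equally well were lost. The file holds 402 genes named as such copies by a symbol that ends in P and a number. Of these, 287 had no counts and 4 a median of at least 10 counts. Copies under other names were not looked at. MTATP6P1 of chromosome 1 took 88.3% of all their counts, with a median of 11145, and MTCO1P12 had a median of 1103. The copy held 8.14% to 19.7% of the counts on MT-ATP6 and MTATP6P1 together, with means of 10.9% ± 0.429 (SD, n = 7) in the control group, 14.7% ± 5.08 in Oxy186-treated and 9.48% ± 1.22 in Oxy210-treated samples. It held 17.9% to 19.7% in Oxy186-treated samples r1-r4, 8.56% to 10.2% in r5-r7 and 8.14% to 11.7% over all 17 tumors other than r1-r4. The copy share of r1-r4 thus lay above that of every other tumor. MT-ATP6 is part of the total of this share, so its low counts in r1-r4 raise the share by themselves. Summed, the chromosome 1 copies were at 667 to 1160 CPM in Oxy186-treated samples. They were at 703 to 1090 CPM in control and 536 to 951 CPM in Oxy210-treated samples. MTCO1P12 held 0.169% to 0.225% of the counts on it and MT-CO1 in r1-r4 and 0.561% to 0.705% in r5-r7. Over all 17 tumors other than r1-r4 it held 0.141% to 0.705%. MT-ND1, MT-ND2, MT-CO1, MT-CO2, MT-ATP8, MT-ATP6 and MT-CO3 have copies on chromosome 1 and their levels are uncertain, and the part of the copies in the differences was not tested.

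Nuclear genes that act on mitochondrial RNA (transcription by POLRMT and TFAM, processing by the RNase P subunits and ELAC2, stability by LRPPRC and SLIRP, and others) were followed as a list of 45, of which 44 were in the file and 43 were tested. In edgeR 0 of 43 passed the adjusted threshold in any of the 3 comparisons. Between Oxy186-treated and Oxy210-treated samples 0 were lower and 2 higher at an unadjusted p under 0.05 (all genes 0.917% and 3.14%), and the list's median log2 fold change was -0.01. The smallest p belonged to SLIRP, which stabilizes mitochondrial mRNAs together with LRPPRC, at a log2 fold change of 0.73 ± 0.22 (SE; edgeR, adjusted p = 0.997). Against the control group the list had 0 lower and 0 higher with Oxy186 (all genes 2.03% and 1.85%) and a median of 0.09, and 1 lower and 4 higher with Oxy210 (all genes 8.56% and 5.48%) and a median of 0.05. The smallest p were those of SSBP1, the single-stranded DNA-binding protein of mitochondria, at 0.35 ± 0.17 (SE; edgeR, adjusted p = 0.836) with Oxy186, and of PRORP, the nuclease subunit of RNase P, at 0.36 ± 0.15 (SE; edgeR, adjusted p = 0.31) with Oxy210.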

How the data were processed

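RNA-seq counts of 21 xenograft tumors were used. The authors trimmed reads with Trimmomatic 0.39, aligned them with STAR 2.7.6a to a combined GRCh38.p13 and GRCm39 genome, kept human alignments and deposited raw counts per gene from uniquely mapped reads by featureCounts of Subread 2.0.1. They also deposited log2 CPM values for 11 tumors, which were looked at and not tested. The strand setting is not given in the sources used here.

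The members and gene lists were chosen with earlier results of these data known. Computation used R 4.3.3, edgeR 4.0.16, limma 3.58.1, DESeq2 1.42.0 and python 3.11.15 with matplotlib 3.10.9. Each pair of groups was filtered with filterByExpr, scaled by TMM and tested over all genes with the quasi-likelihood test of edgeR, with Benjamini-Hochberg adjustment and calls at an adjusted p at or under 0.05, and the script was tested on simulated data. Levels are CPM scaled by TMM over the 16990 genes kept in all 21 tumors. Named are MT-RNR1, MT-RNR2, MT-ND6 and, per comparison, the mRNA and the tRNA (median of at least 30 counts) with the largest and the smallest log2 fold change, and exceptions are said to be such. Positions and sequences came from GENCODE 44 on GRCh38. GC trends were splines with 4 degrees of freedom, from genes with a GC value (99.8% of those tested). The alternatives are listed with the limits. Replicate numbers did not pair the tumors, with correlations of same-numbered deviations from -0.398 to 0.329.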

Additional observations from a re-analysis of the deposited data

Results flagged for a closer look

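In 5 of 93 sets of 7 tumors (a gene's log2 CPM, or the share or ratio of a class, in a group), 1 tumor lay farther from the rest than Dixon's 95% limit, where chance alone gives about 1 in 20, or 4.65. Oxy210-treated sample r1 was the lowest of its group in 3 of them, at a log2 CPM of 11.1 for MT-ND1 (others 11.7 to 12.1), 12.5 for MT-CO2 (others 13 to 13.3) and 12.2 for MT-ATP6 (others 12.6 to 12.8). Control sample r2 was lowest in MT-TL1, at a log2 CPM of 2.62 (others 3.45 to 3.92). Oxy186-treated sample r3 had an rRNA share of 2.80% (others 1.33% to 1.81%).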

How the results depend on the processing

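With the adjusted threshold, the count of mitochondrial genes called stayed at 0 in all 3 comparisons under RLE factors, library size alone, scaling without the MT- genes, no filter, a minimum of 10 counts per library, DESeq2, limma voom, all 21 libraries in one fit, GC offsets, the replicate block with and without GC offsets, a fold over 2, and leaving out each tumor (0 to 0). With r1-r4 alone, chosen after the data were seen, it was 12 against Oxy210 and 11 against the control group. Over all genes, Oxy186 against Oxy210 gave 1 call with no filter, 1 in one fit of all libraries, 1 with GC offsets, 1 with the replicate block and GC offsets, 3 with DESeq2, 1881 with r1-r4 alone and 29 with r5-r7 alone. Oxy186 against the control group gave 3323 with r1-r4 alone. Oxy210 against the control group gave 11 with no filter, 92 with DESeq2 and 2 with the replicate block. The block changed no other count of calls, and in each comparison 0 of 7 numbers correlated best with their own. The cause of these differences was not tested.

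With r5-r7 alone, signs reversed against Oxy210 in MT-RNR1 (0.29), MT-ND6 (0.14) and MT-CO3 (0.15) and against the control group in MT-RNR2 (-0.0797), MT-CO1 (-0.19) and MT-TW (0.0575). MT-CO1 against the control group also reversed under scaling without the MT- genes (-0.00031), no filter (-0.0253), at least 10 counts (-0.0043), limma voom (-0.0125), GC offsets (-0.0627), the replicate block (-0.0144) and the block with GC offsets (-0.0723). Leaving out 1 tumor at a time, log2 fold changes ran from -0.18 to 0.0287 for MT-RNR1 and -0.12 to 0.0398 for MT-CO3 against Oxy210, and from -0.0176 to 0.25 for MT-RNR2 (below 0 without Oxy186-treated sample r3) and -0.12 to 0.0522 for MT-CO1 against the control group. None of these was called. Without the mRNA genes that have a chromosome 1 copy, the rRNA to mRNA ratio was 0.866 in the control group, 1.26 in Oxy186-treated and 0.690 in Oxy210-treated samples.

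Depth limits the 13 tRNA genes too low to judge and the thinly counted MT-TR and MT-TS1. Tumor size, necrosis and the share of mouse cells were not analysed here.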
